A study of Homo sapiens with 10 samples.

Results

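Apoptosis and p53 pathway genes were examined as 1 group across the RNA sequencing libraries of a study of DAZL, an RNA-binding protein of germ cells. The 35 genes were picked by name: 5 pro-survival BCL2 proteins, 3 pore-forming effectors, 8 BH3-only proteins, 3 apoptosome and mitochondrial factors, 5 caspases, 3 inhibitors of apoptosis, 3 death receptors and 5 targets of p53. They took up 36 of the 64940 entries of the expression table, because DIABLO was listed under 2 identifiers, and 32 of these entries reached the mean of 1 TPM required for testing (TPM is transcript abundance per length of the transcript, scaled to the same total in each library). The question was whether the RNA levels of the genes that carry out or restrain cell death differed when DAZL was overexpressed.

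All cells came from H9, a line of human embryonic stem cells. The oeDAZL group consisted of human primordial germ cell-like cells (hPGCLCs) made to overexpress DAZL, with 2 libraries, and the control group carried no DAZL transgene, also with 2 libraries. By the study's methods, overexpression experiments used BMP4 and BMP8a to drive the differentiation, a lentivirus to deliver DAZL and collection at day 6. A sort of fluorescent cells is described there for the miRNA libraries, and whether the cells of the RNA sequencing libraries were sorted is not stated. The sample labels call the controls wild-type cells of spontaneous differentiation, whereas the design text calls them PGCLCs, and a difference in culture or virus cannot be told apart from an effect of DAZL. Nothing in the labels says that the 2 libraries of a group came from separate cultures, and the P-values then measure only the spread between libraries, which may be technical. The other 6 samples of the series are miRNA libraries and were not analysed here.

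Apoptosis by the mitochondrial route is decided within the BCL2 family. Pro-survival members hold the effectors BAX and BAK1 in check, BH3-only proteins relieve that check or engage the effectors directly, and open effectors release cytochrome c, which joins APAF1 and caspase-9 in the apoptosome. Death receptors reach the caspases through caspase-8, inhibitors of apoptosis restrain the caspases, and p53 raises the transcription of several members as well as of genes that stop the cell cycle. Human pluripotent cells and their early derivatives are known to be sensitive to such signals, and primordial germ cells that leave their normal site are removed by apoptosis.

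DAZL, the overexpressed gene, had TPM values of 0 and 0.0333 in control and of 102 and 101 in oeDAZL cells, which matches the labels (log2 fold change 6.65 ± 0.11 SE, limma adjusted P = 1.76e-05). The depth of the libraries is unknown, because TPM is scaled to the same total in each. Between 16342 and 17239 genes reached 1 TPM per library, and mitochondrial transcripts took 12.6% to 14.1% of the total. Of the defining germ cell markers, TFAP2C lay at 44.3 to 53.9 TPM and SOX17 at 2.52 to 3.35 TPM over the 4 libraries, CD38 stayed at or below 0.16 TPM and DDX4 was listed at 0. All 6 tested germ cell markers were fitted lower in oeDAZL cells, whereas 34.7% of all tested genes were fitted higher. SOX17 (log2 fold change −0.004) and DPPA3 (−0.01) were close to 0. The share of all genes fitted higher was 52.4% with median-of-ratios scaling, and the markers were not followed under that scaling. For 3 of the 6, NANOS3, PRDM1 and KIT, both oeDAZL libraries lay below both controls, and 0 of the 6 had an unadjusted P-value of at most 0.05 in limma. The 5 markers of mesenchyme summed to 2243 to 2312 TPM in control and to 1605 to 1634 TPM in oeDAZL cells, with 4 of 5 below both controls (38.4% of all tested genes were). The 5 of amnion and trophoblast summed to 1881 to 1982 and 2209 to 2225 TPM, a sum carried by HAND1 and KRT7, with 2 of 5 above and 2 of 5 below both controls, ISL1 among the latter (log2 fold change −0.49). Endoderm markers summed to 92.7 and 47.3 TPM in control and to 42.5 and 53.3 TPM in oeDAZL cells. POU5F1, a pluripotency factor, stood at 13.6 and 10.6 TPM in control and at 22.4 and 20.4 TPM in oeDAZL cells. SOX2, another such factor, went the other way, at 5.16 and 2.57 TPM in control and 2.16 and 2.04 TPM in oeDAZL cells. NANOG lay at 0.432 to 0.813 TPM over the 4 libraries. The part of these cell type markers in the values below was not tested, and fewer cells of a type and less RNA per cell cannot be told apart in bulk RNA.

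Since the study concerns miRNAs, the miRNA sites of these genes are shown first. The effect of DAZL on the processing of let-7 was assayed there, and miR-125b was listed among the mature miRNAs that were higher with DAZL. A mature miRNA pairs through its seed, bases 2 to 8, with sites in the 3′UTR of its targets. An 8mer site, the complement of the seed followed by A, was searched in the longest GENCODE 44 3′UTR of each gene (hg38). The 2 miRNAs are given 5′ to 3′ from RefSeq with the seed in capitals, and the let-7 and selected miR-125b sites as the DNA of the mRNA strand with the 8mer in capitals.
hsa-let-7a-5p: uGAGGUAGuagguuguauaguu
hsa-miR-125b-5p: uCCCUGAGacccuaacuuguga
BCL2L1, let-7 site at chr20:31664997-31665004 (minus strand): gggtcttccCTACCTCAggcaggaag
CDKN1A, let-7 site at chr6:36686743-36686750 (plus strand): accctagttCTACCTCAggcagctca
FAS, first let-7 site at chr10:89015004-89015011 (plus strand): aataaggctCTACCTCAaagaccttt
FAS, second let-7 site at chr10:89020557-89020564 (plus strand): ctccaggtaCTACCTCAgacaacaag
BAK1, miR-125b site at chr6:33573166-33573173 (minus strand): agttggactCTCAGGGAttctgggct
MCL1, miR-125b site at chr1:150574755-150574762 (minus strand): tacgcttctCTCAGGGAaaaacatgc

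BCL2L1, CDKN1A and FAS were the 3 of 32 tested members (9.38%) with the let-7 8mer CTACCTCA, which 4.73% of the 13047 tested genes with a 3′UTR held. The 3′UTR of FAS that was searched is 15155 bases long, so matches in it are frequent by length alone. The miR-125b 8mer CTCAGGGA was found in 6 members (18.8%, against 6.22% of all), namely BCL2, MCL1, BAK1, BMF, CASP2 and CASP9. For 4 further miRNAs of the study, the members with an 8mer were HRK and APAF1 (miR-21-5p), PMAIP1 and FAS (miR-22-3p), SESN1 (miR-199a-5p), and CASP9 and MDM2 (miR-199a-3p). In all, 14 members had at least 1 of these sites. Whether a miRNA acted on any of them was not tested.

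The thresholds of the study, a 2-fold change and an unadjusted P-value no larger than 0.05, were applied there to a DESeq2 test. That test called more genes in all than limma did here, and whether it called any member was not tested. In limma none of the members met both thresholds, which 0.689% of all 16687 tested genes met (0.126% higher and 0.563% lower in oeDAZL cells). No member had an adjusted P-value under 0.05 either, against 0.0599% of all genes (10 genes), and the lowest adjusted P-value of a member in limma was 0.106. The P-value threshold alone was met by 6 of 32 members (18.8%), close to the background of 20.2%. Of the 6, BCL2L11, TP53INP1, BIRC2, TNFRSF10A and BAK1 had the higher value in oeDAZL cells (15.6% of members, against 5.02% of all genes), and BAD had the lower one (3.12%, against 15.2%). The split of all genes depended on scaling, since 24.9% of those past the P-value threshold were higher with TPM as deposited, 57.8% with median-of-ratios scaling and 48.1% with quantile normalization, where 9 and 7 members passed, all higher.

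The fitted value was above 0 for 20 of 32 members (62.5%, against 34.7% of all genes). The median log2 fold change on the log2(TPM + 1) scale was 0.05 for the members and −0.08 for all tested genes. With median-of-ratios scaling both medians moved up, to 0.15 and 0.01, and 25 of 32 members were fitted higher against 52.4% of all genes. Both oeDAZL libraries lay above both controls for 13 members (40.6%, against 16.0% of all genes) and below them for 5 members (15.6%, against 38.4%), and the groups overlapped for the other 14. These are descriptions of the list, which was not tested as a set. On the log2(TPM + 1) scale the fold changes were small, from −0.37 for CASP8 to 0.49 for BCL2L11, and the 95% interval of each of the 32 members lay within a 2-fold change in either direction, with outer bounds of −0.86 and 0.91 on the log2 scale. Adding 1 to TPM draws the fold changes of low genes toward 0. With 0.1 added instead, the values were 0.56 for HRK, 0.56 for TNFRSF10A and −0.445 for CASP8. The interval bounds are given only for the scale with 1 added.

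**Figure D1:**
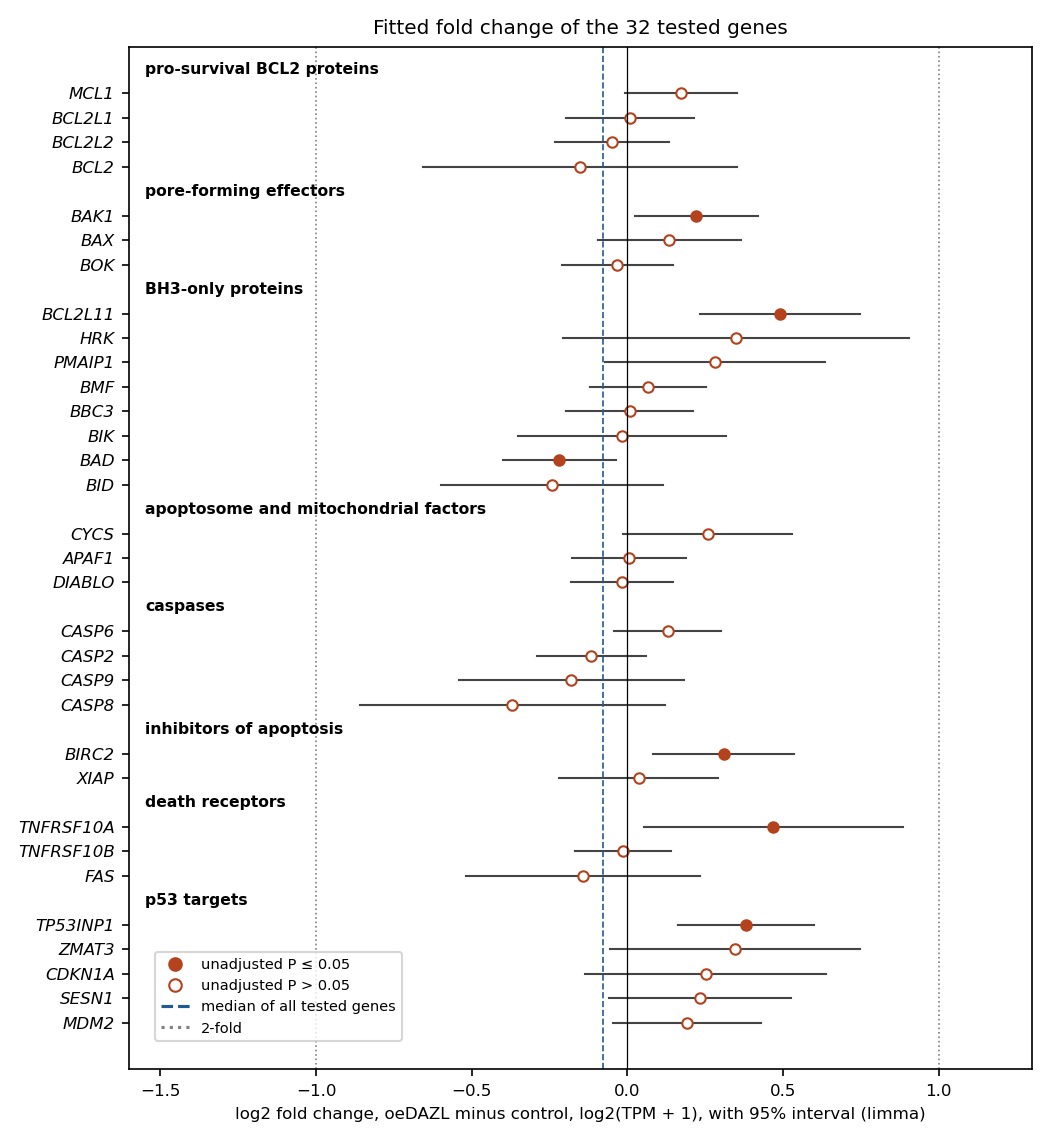
Fitted log2 fold change (oeDAZL minus control, log2(TPM + 1), x axis) with its 95% interval from limma for the 32 tested genes, grouped by role, with 2 libraries per group. Filled points met the P-value threshold (0.05, unadjusted). The dashed line is the median of all tested genes (−0.08) and the dotted lines mark a 2-fold change. On this scale all intervals end inside the dotted lines, and 20 of the 32 points lie right of 0.

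Among the pro-survival proteins, MCL1, a short-lived guard of BAK1 and BAX, was the most abundant member of the class. It stood at 177 and 202 TPM in control and at 214 and 212 TPM in oeDAZL cells. Both oeDAZL libraries were above both controls, but the control libraries differed from each other by more than the second control differed from either oeDAZL library (log2 fold change 0.17 ± 0.07 SE, limma adjusted P = 0.266). BCL2L1, which encodes BCL-XL, had nearly the same mean in both groups, 110.1 ± 12.4 TPM in control and 110.3 ± 1.16 TPM in oeDAZL cells (SD, n = 2), and its let-7 site shown above went with a log2 fold change of 0.01 (95% interval −0.20 to 0.21).

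BCL2L2, the gene of BCL-W, lay at 31.6 ± 1.09 and 30.5 ± 0.31 TPM (SD, n = 2) in control and oeDAZL cells. The annotated read-through gene BCL2L2-PABPN1 was listed at 1.69 to 3.34 TPM, and reads of the exons that both share could be counted under either. BCL2 itself, the founding member of the family, was low at 1.77 to 2.501 TPM in the 4 libraries, and its groups overlapped. BCL2A1, a pro-survival member best known from blood cells, was listed at 0 in every library. MCL1 made up 56.5% and 57.1% of the summed TPM of the class in control and 59.9% in both oeDAZL libraries. The ratio of MCL1 to BCL2L1 was 1.74 and 1.70 in control and 1.93 in both oeDAZL libraries.

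The effectors that open the outer mitochondrial membrane were all expressed. BAX stood at 171 and 202 TPM in control and at 215 and 194 TPM in oeDAZL cells, so that the groups overlapped (log2 fold change 0.13 ± 0.09 SE, limma adjusted P = 0.461). BAK1 was listed at 35.4 and 36.4 TPM in control and at 44.4 and 39.8 TPM in oeDAZL cells. Both oeDAZL libraries of BAK1 lay above both controls, although the oeDAZL libraries of this gene differed from each other by more than the nearest ones of the 2 groups did (log2 fold change 0.22 ± 0.08 SE, limma unadjusted P = 0.0338, adjusted P = 0.213). It met the P-value threshold in 8 of 13 alternatives, and among those in which it did not were the fit without limma's variance trend (log2 fold change 0.22) and those without control replicate 1 (0.20), control replicate 2 (0.24) or oeDAZL replicate 1 (0.14).

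BAK1 lies at chr6:33572547-33580293 on the minus strand and is the member whose miR-125b site is shown above. It was also the only one of 28 members matched to a RefSeq promoter (GRCh38.p14, 1 window of 300 bases around the start of each gene) with a p53 half-site, the decamer GGACATGCTC at chr6:33580340-33580349. It begins at position −73 from the RefSeq start, which is not the same base as the end of the GENCODE gene given above. The p53 half-site consensus reads the same on both strands and was present in 6.54% of 27305 promoters, against 3.57% of these members, and a match does not show binding. No member promoter held a full p53 site, 2 half-sites up to 13 bases apart, which 0.0293% of all promoters did. At so low a share none is to be expected among 28 promoters, so this absence tells nothing about the members. Sites outside the window of 300 bases were not searched. BOK, a relative of BAX and BAK1, averaged 78.3 ± 5.83 TPM in control and 76.4 ± 1.90 TPM in oeDAZL cells (SD, n = 2), with overlapping groups.

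The BH3-only class held both the member with the lowest P-value and the only one of the 6 with a lower value in oeDAZL cells. BCL2L11, which encodes the potent death activator BIM, lies at chr2:111119378-111168444. It was listed at 10.03 and 9.72 TPM in control and at 14.7 and 13.8 TPM in oeDAZL cells. The groups were far apart relative to the spread within them, 9.88 ± 0.22 against 14.3 ± 0.64 TPM (SD, n = 2), which gives a 1.41-fold higher value of TPM + 1 (log2 fold change 0.49 ± 0.11 SE, limma unadjusted P = 0.00324, adjusted P = 0.106). BCL2L11 and the p53 target TP53INP1 met the P-value threshold under all 13 alternative settings of the analysis, those that left out a library included.

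BAD, a sensitizer that growth factor signalling silences by phosphorylation, lies at chr11:64269830-64284704 on the minus strand. It was listed at 38.5 and 41.1 TPM in control and at 34.7 and 33.4 TPM in oeDAZL cells, with both oeDAZL libraries below both controls (log2 fold change −0.22 ± 0.07 SE, limma unadjusted P = 0.0257, adjusted P = 0.195). BAD met the P-value threshold in 6 of 13 alternatives, and among those in which it did not were median-of-ratios scaling (log2 fold change −0.12), quantile normalization (−0.15), the fit without the variance trend (−0.22) and those without control replicate 2 (−0.17), oeDAZL replicate 1 (−0.25) or oeDAZL replicate 2 (−0.19).

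BMF, a sensor of cytoskeletal damage and loss of attachment, was the most abundant BH3-only gene. It stood at 83.0 and 88.5 TPM in control and at 95.03 and 84.8 TPM in oeDAZL cells, with overlapping groups (log2 fold change 0.07 ± 0.08 SE, limma adjusted P = 0.666). Of the 2 BH3-only genes best known as p53 targets, BBC3, the gene of PUMA, stayed between 30.04 and 33.5 TPM in all 4 libraries. PMAIP1, the gene of NOXA, lay at 12.6 and 15.5 TPM in control and at 19.1 and 15.5 TPM in oeDAZL cells. The second values of PMAIP1 were nearly equal in the 2 groups (15.52 and 15.54 TPM).

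BID, which caspase-8 cleaves to link death receptors to mitochondria, averaged 14.7 ± 2.87 TPM in control and 12.2 ± 0.57 TPM in oeDAZL cells (SD, n = 2), and control replicate 1 was the high library. BIK, a BH3-only protein of the endoplasmic reticulum, lay at 6.65 to 7.77 TPM over the 4 libraries with overlapping groups. HRK, known from neurons, was the lowest of the class, with 1.002 and 1.34 TPM in control and 1.62 and 1.90 TPM in oeDAZL cells. HRK had a log2 fold change of 0.35 ± 0.23 SE and the highest upper bound of all members (95% interval −0.21 to 0.91).

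**Figure D2:**
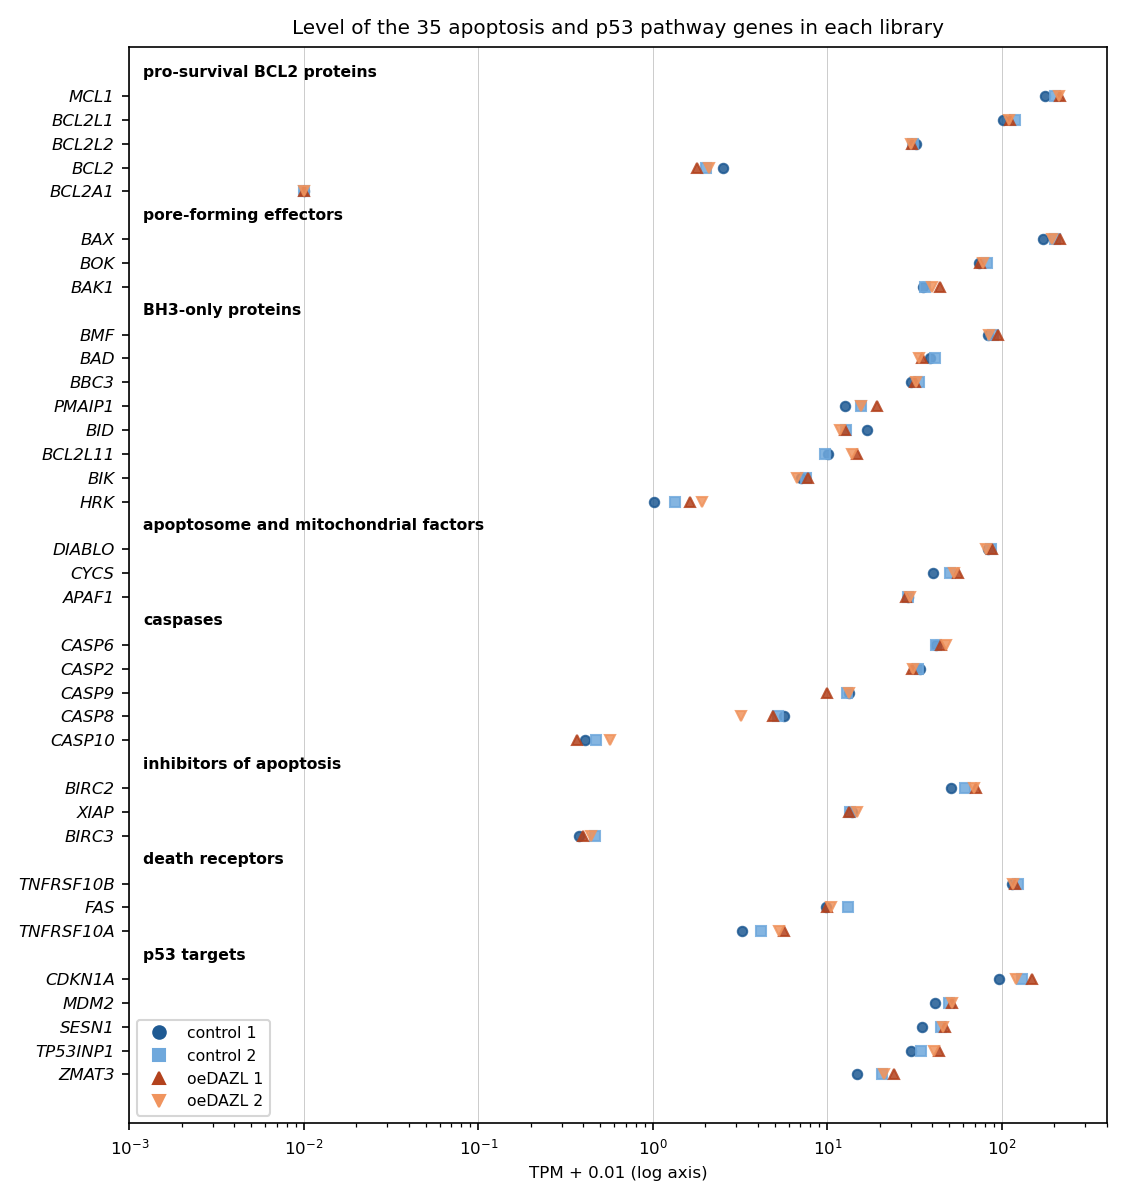
TPM of the 35 genes in each of the 4 libraries (x axis, log scale, 0.01 added so that genes listed at 0 can be drawn), ordered within each role by mean level. Circles and squares are control replicates 1 and 2, and the triangles are oeDAZL replicates 1 and 2. The range between genes, from BCL2A1 at 0 to MCL1 at 177 to 214 TPM, was far wider than that between libraries of any 1 gene above 1 TPM.

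Downstream of the effectors, DIABLO, which neutralizes inhibitors of apoptosis once it leaves the mitochondria, was listed at 83.2 and 86.9 TPM in control and at 87.3 and 80.6 TPM in oeDAZL cells. The groups overlapped for DIABLO (log2 fold change −0.02 ± 0.07 SE, limma adjusted P = 0.9001), and the second entry of that name lay at or below 0.371 TPM. CYCS, the gene of cytochrome c, stood at 40.5 and 50.5 TPM in control and at 55.7 and 52.9 TPM in oeDAZL cells. Both oeDAZL libraries of CYCS were above both controls, with control replicate 1 well below the other 3 libraries (log2 fold change 0.26 ± 0.11 SE, limma adjusted P = 0.265). CYCS has many processed pseudogenes, and reads that fit more than 1 locus were discarded upstream, so its level is uncertain. APAF1, the scaffold of the apoptosome, was the steadiest member, at 28.4 to 29.6 TPM over the 4 libraries.

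Of the caspases, 3 of 4 tested were fitted lower in oeDAZL cells, and these 3 stayed below 0 under each scaling tried. With TPM as deposited, 34.7% of all tested genes were fitted higher, so most genes were fitted lower too. The P-value threshold was met by 0 of the 4. CASP6, an executioner, was the most abundant and the exception, with 42.1 and 42.0 TPM in control and 44.6 and 47.7 TPM in oeDAZL cells (log2 fold change 0.13 ± 0.07 SE, limma adjusted P = 0.354). CASP8, the initiator at death receptors, was listed at 5.62 and 5.19 TPM in control and at 4.84 and 3.20 TPM in oeDAZL cells. Both oeDAZL libraries of CASP8 were below both controls, but most of the difference came from oeDAZL replicate 2 (log2 fold change −0.37 ± 0.20 SE, limma adjusted P = 0.355).

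CASP2, an initiator engaged by the PIDDosome, averaged 33.4 ± 0.66 TPM in control and 30.7 ± 0.08 TPM in oeDAZL cells (SD, n = 2), without overlap (log2 fold change −0.12 ± 0.07 SE, limma adjusted P = 0.414). CASP9, the caspase of the apoptosome, was low in oeDAZL replicate 1 alone, at 9.92 TPM against 12.9 to 13.4 TPM in the other 3 libraries. CASP10, a relative of CASP8, lay at 0.356 to 0.556 TPM and was not tested. The summed level of the 5 caspases was 93.5 to 95.3 TPM in control and 90.4 to 95.4 TPM in oeDAZL cells.

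Of the inhibitors of apoptosis, BIRC2, the gene of cIAP1, a ubiquitin ligase that steers TNF receptor signalling toward survival, lies at chr11:102347211-102378670. It was listed at 51.4 and 61.3 TPM in control and at 70.7 and 68.9 TPM in oeDAZL cells. Both oeDAZL libraries of BIRC2 were above both controls, and control replicate 1 was again the lowest (log2 fold change 0.31 ± 0.09 SE, limma unadjusted P = 0.0157, adjusted P = 0.166). Without control replicate 1 its log2 fold change was 0.18 (limma unadjusted P = 0.0331, adjusted P = 0.298), and without control replicate 2 it was 0.43, where the adjusted P-value was 0.0448 in limma and 673 genes in all had one under 0.05. It did not meet the P-value threshold without oeDAZL replicate 1 (0.29) or without limma's variance trend (0.31).

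XIAP, the direct inhibitor of active caspases, stayed at 13.3 to 14.8 TPM in all libraries with overlapping groups. BIRC3, the gene of cIAP2 and the genomic neighbour of BIRC2, lay at 0.368 to 0.456 TPM and was not tested. BIRC2 made up 78.4% and 81.5% of the summed TPM of the 3 inhibitors in control and 83.8% and 81.9% in oeDAZL cells. The class sum was 65.6 and 75.2 TPM in control and 84.3 and 84.04 TPM in oeDAZL cells.

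The death receptors were dominated by TNFRSF10B, a receptor of TRAIL that p53 can induce, at 114 and 124 TPM in control and 118 and 116 TPM in oeDAZL cells. Its oeDAZL libraries lay between the controls (log2 fold change −0.01 ± 0.06 SE, limma adjusted P = 0.927). TNFRSF10A, the other signalling TRAIL receptor, was much lower, at 3.22 and 4.14 TPM in control and 5.65 and 5.26 TPM in oeDAZL cells. Both oeDAZL libraries of TNFRSF10A were above both controls (log2 fold change 0.47 ± 0.17 SE, limma unadjusted P = 0.0326, adjusted P = 0.211).

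The antisense gene TNFRSF10A-AS1 was listed at 0 and 0.911 TPM in control and at 1.27 and 1.08 TPM in oeDAZL cells, and since the strand setting of the counting is not given in the sources used here, reads of the 2 genes may not be separate. TNFRSF10A met the P-value threshold in 7 of 12 alternatives, and among those in which it did not were the fit without a filter on TPM (log2 fold change 0.47) and those without control replicate 1 (0.33), oeDAZL replicate 1 (0.43) or oeDAZL replicate 2 (0.51). FAS, the receptor of FAS ligand and the member with 2 let-7 sites, was listed at 9.80 and 13.2 TPM in control and at 9.94 and 10.4 TPM in oeDAZL cells. Control replicate 2 was the high library of FAS, and the log2 fold change was 0.05 without it, −0.34 without control replicate 1 and −0.14 with all libraries.

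The 5 genes of the p53 target class were all fitted higher in oeDAZL cells, with a median log2 fold change of 0.25 that stayed above 0 under each scaling tried (0.25 to 0.35), and 4 of 5 had both oeDAZL libraries above both controls (16.0% of all genes did). This class and the other p53 targets below leave out some genes named elsewhere here as induced by p53. These were PMAIP1 (log2 fold change 0.28), BBC3 (0.01), TNFRSF10B (−0.01) and, outside the members, PIDD1 (−0.31). The counts therefore hold for the genes listed and not for p53 targets in general. CDKN1A, the gene of the cell cycle inhibitor p21, lies at chr6:36676460-36687337. It was listed at 96.3 and 130.5 TPM in control and at 148 and 121 TPM in oeDAZL cells. The groups overlapped, since oeDAZL replicate 2 lay below control replicate 2 (log2 fold change 0.25 ± 0.16 SE, limma unadjusted P = 0.163, adjusted P = 0.419).

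TP53INP1, a nuclear and autophagy-linked protein induced in stress, was listed at 30.1 and 34.3 TPM in control and at 43.5 and 40.9 TPM in oeDAZL cells. It was the 1 member of the class that met the P-value threshold, and both oeDAZL libraries were above both controls by more than the spread within either group (log2 fold change 0.38 ± 0.09 SE, limma unadjusted P = 0.00502, adjusted P = 0.117). MDM2, the ubiquitin ligase that limits p53, averaged 45.3 ± 5.86 and 51.6 ± 0.14 TPM in control and oeDAZL cells (SD, n = 2). SESN1, a stress-induced inhibitor of mTORC1 signalling, averaged 39.6 ± 6.92 and 46.3 ± 0.94 TPM in the same order. ZMAT3, an RNA-binding protein, averaged 17.7 ± 4.23 and 22.5 ± 2.08 TPM. The control spread of MDM2, SESN1 and ZMAT3 was larger than that of oeDAZL, and none of them passed the unadjusted threshold.

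Control replicate 1 was the lowest of the 4 libraries for all 5 p53 targets, against 21.3% of all tested genes. With 2 controls, it cannot be told which of them was the unusual one. The second control exceeded the first by a median of 0.35 on the log2 scale over the 5 genes, whereas oeDAZL replicates 1 and 2 exceeded the second control by 0.18 and 0.04. Without control replicate 1, the median log2 fold change of the 5 genes was 0.06, and without control replicate 2 it was 0.47. Of the 5, TP53INP1 alone met the P-value threshold without control replicate 1 (log2 fold change 0.29, limma adjusted P = 0.248), and all 5 met it without control replicate 2. The log2 fold change of CDKN1A without control replicate 1 was 0.04 (limma adjusted P = 0.918).

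**Figure D3:**
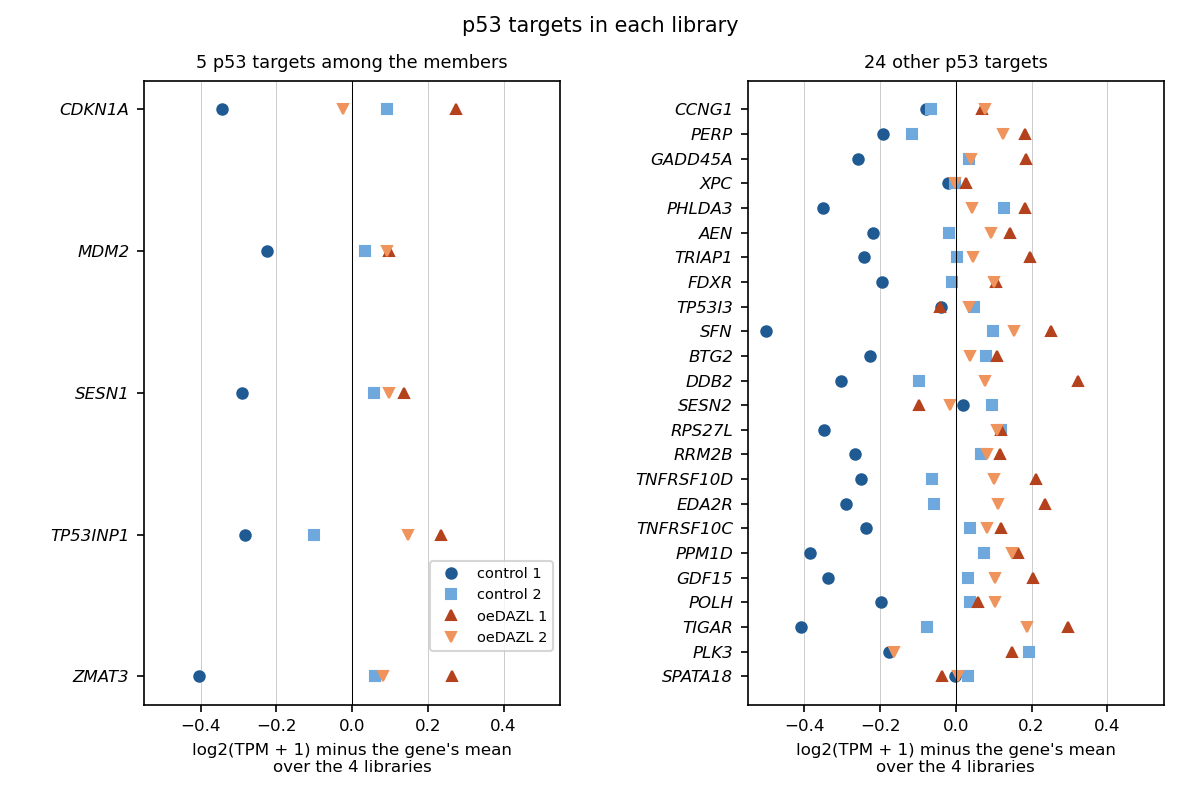
Level of each p53 target in each library as log2(TPM + 1) minus the mean of that gene over the 4 libraries (x axis), for the 5 members (left) and 24 other p53 targets (right), ordered by mean TPM. Circles and squares are control replicates 1 and 2 and triangles the oeDAZL replicates. Control replicate 1 was the lowest library for 5 of 5 and 21 of 24 genes, and control replicate 2 lay near the oeDAZL libraries for most of them.

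Other p53 targets, a list that shares no gene with the members, were examined beside them. Of 24 tested genes, 20 were fitted higher in oeDAZL cells (83.3%, against 34.7% of all genes), 16 had both oeDAZL libraries above both controls (66.7%, against 16.0%), and the median log2 fold change was 0.22. None passed the 2-fold threshold or an adjusted P-value of 0.05 in limma (lowest 0.0896), and 8 met the P-value threshold, all higher (33.3%, against 5.02% of all genes). PERP, a desmosomal protein with a part in p53-dependent death, had the lowest P-value of the list, with 202 and 213 TPM in control and 262 and 252 TPM in oeDAZL cells (log2 fold change 0.31 ± 0.06 SE). TIGAR, which redirects glucose toward the pentose phosphate pathway, had the largest fold change of the list, with 8.78 and 11.3 TPM in control and 14.9 and 13.8 TPM in oeDAZL cells (0.49 ± 0.14 SE).

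The others of the 8 were DDB2, a sensor of ultraviolet damage (log2 fold change 0.40), EDA2R, a receptor of the TNF family (0.35), TNFRSF10D, a decoy receptor of TRAIL (0.31), AEN, a nuclease (0.24), FDXR, a mitochondrial reductase (0.21), and CCNG1, a cyclin that p53 induces (0.15). Control replicate 1 was the lowest library for 21 of the 24 genes. Without it, the median was 0.08 and 17 of 24 were fitted higher, against 37.6% of all genes. Without control replicate 2 the median was 0.35 and 22 of 24 were fitted higher, against 34.8% of all genes.

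The list of other apoptosis genes, 22 tested, lay at a median log2 fold change of 0.01, with 12 fitted higher and 10 lower. None passed the 2-fold threshold or an adjusted P-value of 0.05 (lowest 0.119 in limma), and 4 (18.2%, against 20.2% of all genes) met the P-value threshold. VDAC2 and VDAC1, channels of the outer mitochondrial membrane of which VDAC2 binds BAK1, had log2 fold changes of 0.23 and 0.17, and VDAC2 stood at 228 and 244 TPM in control and at 294 and 260.2 TPM in oeDAZL cells. CASP4, an inflammatory caspase, was low, at 0.520 and 0.382 TPM in control and 1.82 and 1.43 TPM in oeDAZL cells (log2 fold change 0.85 ± 0.25 SE). It reached the mean of 1 TPM required for testing only through the oeDAZL group, so its fold change and its place among the 4 rest in part on the filter. PIDD1, the p53-induced scaffold that activates caspase-2, went the other way, with 31.8 and 31.3 TPM in control and 24.9 and 25.5 TPM in oeDAZL cells (−0.31 ± 0.08 SE).

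**Figure D4:**
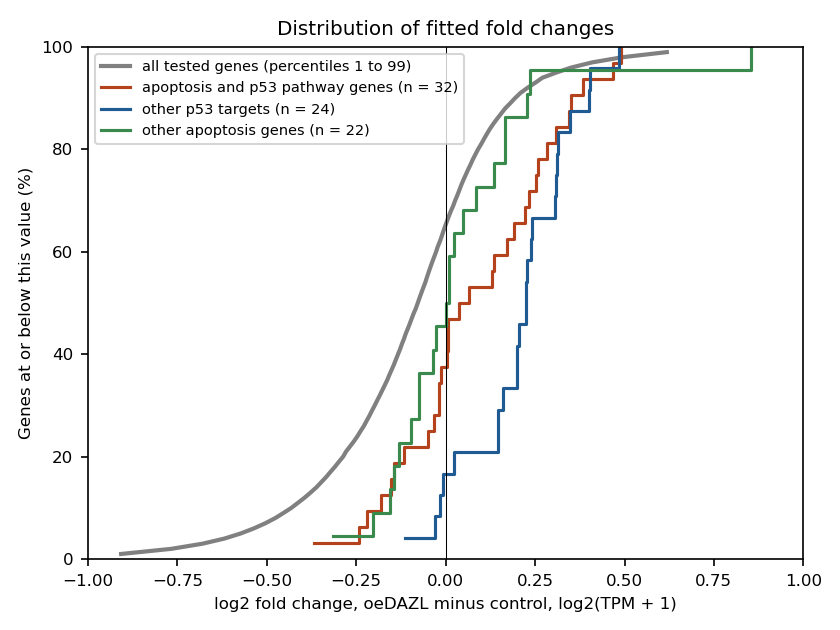
Cumulative distribution of the fitted log2 fold change (x axis, oeDAZL minus control, log2(TPM + 1)) for all tested genes (grey, percentiles 1 to 99) and for the 32 members, 24 other p53 targets and 22 other apoptosis genes (steps). The medians are −0.08, 0.05, 0.22 and 0.01 in this order, and the 3 lists lie right of the grey line over most of its range.

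The members together took 0.145% and 0.164% of all TPM in control and 0.171% and 0.162% in oeDAZL cells. On the gene-wise deviation from the mean of the 4 libraries, the median of the tested members was −0.10 in control replicate 1 and 0.03 in control replicate 2, and 0.07 and 0.01 in the oeDAZL replicates. The 2 controls differed from each other by a median of 0.17 in absolute log2 units over the members, more than either oeDAZL replicate differed from control replicate 2 (0.10 for both). Without control replicate 1, the members had a median log2 fold change of 0.02 and 5 met the P-value threshold, as 15.0% of all genes did. Without control replicate 2 the median was 0.12 and 13 members met it, against 27.8% of all genes, and BIRC2 was 1 of 673 genes with an adjusted P-value under 0.05.

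By class, the summed TPM of the p53 targets and of the inhibitors of apoptosis showed the largest ratios of the group means, 1.20 for both. The p53 targets summed to 217 and 279 TPM in control and to 315 and 279.5 TPM in oeDAZL cells, so that control replicate 2 and oeDAZL replicate 2 were nearly equal. The pro-survival proteins summed to 313 and 354 TPM in control and 358 and 353 TPM in oeDAZL cells, and the effectors to 280.3 and 321 TPM and to 334 and 311 TPM. The BH3-only proteins differed by a ratio of 1.02, the caspases by 0.984 and the death receptors by 0.995. The ratio of BAX to BCL2L1, 1 measure of the balance between death and survival at the mitochondrion, was 1.69 and 1.70 in control and 1.93 and 1.77 in oeDAZL cells. That of BAX to BCL2 was 68.3 and 100 in control and 121 and 93.4 in oeDAZL cells, with overlapping groups. With 2 libraries per group, an exact permutation test of such a sum or ratio cannot give a P-value below 0.333, and none is given.

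**Figure D5:**
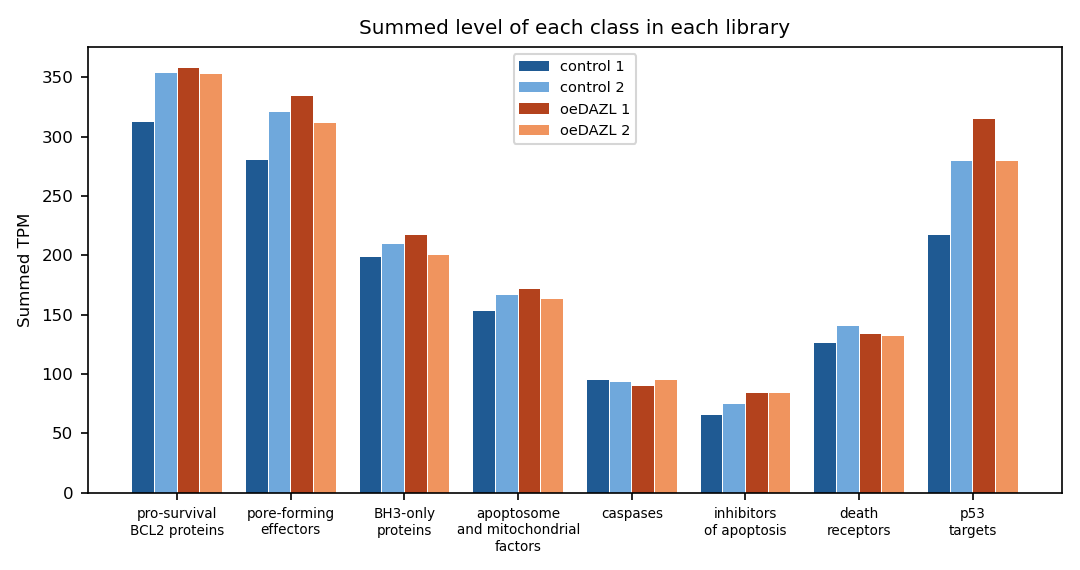
Summed TPM (y axis, from 0) of the genes of each role in the 4 libraries, 1 bar per library. The sum of the p53 targets was 217 TPM in control replicate 1 and 279 to 315 TPM in the other 3 libraries, and the sum of the caspases stayed between 90.4 and 95.4 TPM in all of them.

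The members with an 8mer for any of the 6 miRNA seeds searched had a median log2 fold change of 0.12 (14 genes, from −0.18 to 0.35), and those without had one of 0.02 (18 genes, from −0.37 to 0.49). The 3 members with a let-7 site, BCL2L1, CDKN1A and FAS, had values of 0.01, 0.25 and −0.14, and the 6 with a miR-125b site were split, with MCL1, BAK1 and BMF above 0 and BCL2, CASP2 and CASP9 below. Neither BCL2L11 nor TP53INP1, the members with the lowest P-values, had an 8mer for any of these seeds in the 3′UTR searched. Shorter sites were not searched, nor were other miRNAs of the study, miR-10b-5p among them. The absence of an 8mer therefore does not place either gene outside the reach of the study's miRNAs.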

How the data were processed

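RNA sequencing of 2 control and 2 oeDAZL libraries was used. By the methods and the submitters' processing notes, reads were trimmed with Trim Galore (0.6.4 in the notes, another version in the methods), uniquely mapped to hg38 (HISAT2 2.1.0) and quantified (StringTie 2.1.4). The authors deposited TPM per gene and library. The annotation release is not given in the sources used here. TPM keeps no depth, so no counting error or floor was computed, and precision rests on the spread between 2 libraries per group.

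Of 65003 entries, 45 copies on the Y chromosome and 18 repeats were left out. Values were taken as log2(TPM + 1), and 16687 genes, those whose mean TPM reached 1, were fitted together with limma 3.58.1 in R 4.3.3 (lmFit, eBayes with trend, no covariates) with Benjamini-Hochberg adjustment over all of them. The thresholds are those of the study, whose DESeq2 test needs counts that were not used here. The procedure was run on simulated data with planted changes larger than that of any member. That run does not show how well changes of the members' size are found.

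Members and lists were chosen with earlier results of these data known. All 35 members are accounted for. Values of every library are given for members with an unadjusted P-value of at most 0.05 and, in each class, for the most abundant member and the one with the largest fold change, and those of the other 2 lists are named at the same P-value. The per-library values of other members (BCL2A1, PMAIP1, HRK and FAS) were added after they were seen. Alternatives were the pseudocount, the filter, 3 scalings, the variance trend, a replicate block and leaving out each library.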

Additional observations from a re-analysis of the deposited data

How the results depend on the processing

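The count of members past a 2-fold change with an unadjusted P-value of at most 0.05 was 0 under all 13 alternatives, and DAZL kept its direction and call (6.63 to 9.78). The count of 6 members at an unadjusted P-value of at most 0.05 was 3 with the replicate number as a block, where BAD, BAK1 and TNFRSF10A no longer met it (16.6% of all genes did). Same-numbered libraries deviated from their group means with r = −0.104 across genes. With 2 libraries per group the crossed pairs have the same value with the opposite sign (0.104). Whether the numbers pair the samples cannot be told from so weak a correlation. A crossed pairing, chosen after seeing the data, gave 13 such members, 2 members at an adjusted P-value under 0.05 and 14 other p53 targets, beside 4017 of all genes at the unadjusted and 1089 at the adjusted threshold. Leaving out a library gave 3 to 13 members, 0 to 1 at an adjusted P-value under 0.05, 1 to 19 other p53 targets and 1 to 5 other apoptosis genes. The extremes came without oeDAZL replicate 1 (3, 1 and 1) and without control replicate 2 (13, 19 and 5), where 9.49% and 27.8% of all genes met the threshold. Without limma's trend there were 5 other p53 targets.

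Median-of-ratios scaling moved the median of the members to 0.15 and that of all genes to 0.01, and the share of higher genes among those with an unadjusted P-value of at most 0.05 from 24.9% to 57.8% (48.1% with quantile normalization). The members counted were then 9 and 7, all higher. Signs turned for members near 0. With median-of-ratios scaling these were DIABLO (0.0815), BIK (0.0712), TNFRSF10B (0.0872), BOK (0.0683) and BCL2L2 (0.0491), with quantile normalization DIABLO (0.0172), BIK (0.104), BCL2L2 (0.0141) and BCL2 (0.0263), and with TPM rescaled without mitochondrial genes TNFRSF10B (0.0037). Leaving out a library turned the sign of 11 members, whose log2 fold changes then ran from −0.0757 to 0.0383 for DIABLO, −0.0243 to 0.0338 for APAF1, −0.0152 to 0.147 for BMF, −0.0691 to 0.0835 for BBC3, −0.116 to 0.0803 for BIK, −0.3704 to 0.0113 for CASP9, −0.0733 to 0.0465 for TNFRSF10B, −0.339 to 0.0514 for FAS, −0.0347 to 0.107 for XIAP, −0.107 to 0.0433 for BOK and −0.107 to 0.121 for BCL2L1. The cause was not tested.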
